A study of Homo sapiens with 8 samples.

Results

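The genes of mitosis and of the G2/M transition were followed in aggregates of IGR-N91, a human neuroblastoma (NB) cell line from a stage 4 tumor. They were the 51 listed genes for mitotic cyclins and kinases, spindle checkpoint, kinetochore, kinesins, cytokinesis and their transcription factors. Each was matched by its symbol to 1 row of the 60676 gene rows in the count table. Of the 51, 48 passed the filter on low counts and were tested among 16680 genes. No measured value chose the genes, but the list was drawn up with earlier results of these data known.

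All aggregates were grown in hanging drops of culture medium with serum. One group of 2 libraries was kept in control medium, which had held no tissue. The other 3 groups, also of 2 libraries each, were exposed to medium conditioned by explanted ganglia: E8 chick sympathetic ganglia (E8-cSGcm), E8 chick dorsal root ganglia (E8-cDRGcm) and E15.5 mouse sympathetic ganglia (E15.5-mSGcm), where E is the embryonic day and the labels also write GS for SG. Ganglia of several embryos were pooled for a medium, and the sources put the exposure at 20 h (treatment protocol) or 24 h (design). The libraries came from 1 cell line, and no source used here says whether the 2 libraries of a group were separate cultures or separate lots of medium, so the p-values measure the spread between these libraries, which may be technical.

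Cells enter mitosis when cyclin B and CDK1 are switched on by CDC25 phosphatases. Aurora and polo-like kinases, kinesins and the kinetochore then build and attach the spindle, the checkpoint holds anaphase back, and the anaphase-promoting complex (APC/C) ends it by marking cyclin B and securin for destruction. Most of these genes are transcribed in G2 and mitosis and repressed before it, through a complex of MuvB with B-MYB and FOXM1 on one side and DREAM on the other, which bind the cell cycle homology region (CHR), while the factor NF-Y binds CCAAT boxes nearby. RNA of these genes is therefore high in cycling cells.

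The promoters of the set show this arrangement in their letters. Windows of 250 bases before to 50 bases after a RefSeq transcription start (GRCh38.p14) were found for 43 of the 51 genes. The CHR letters TTTGAA, read on either strand, were in a window of 32 of these 43 genes (74.4%). They were in 18.2% of 27305 genes with a window, a count that leaves out 1 chromosome, which carries none of the 51 genes. They were also in 25 of 55 further mitosis genes (45.5%) and in 1 of 25 S-phase genes. In the set, the variant TTTAAA, its own reverse complement, was in 14 (32.6%, against 14.5%), and CCAAT, read on either strand, in 35 (81.4%, against 39.7%). The variant was in only 5 of the 55 further mitosis genes (9.09%) and 3 of the 25 S-phase genes. CCAAT was not particular to the set: it was in 40 of the 55 further mitosis genes (72.7%) and 15 of the 25 S-phase genes (60%). Both a CHR form and CCAAT stood in 30 genes of the set (69.8%, against 11.2%), in 21 of the 55 further mitosis genes (38.2%) and in 2 of the 25 S-phase genes. These are matches of letters, not measured binding, and a CHR and a CCAAT match can share a base. Printed with TTTGAA as well as TTTAAA and CCAAT (or their reverse complements) in capitals are CDCA8 and KIF23, which were called in both directions in different media, CCNB2 and PLK1, a mitotic cyclin and a mitotic kinase, and CCNA2, whose window holds CCAAT without these CHR letters. All are printed 5′ to 3′ on the strand of the gene.
CDCA8 (chr1:37692266-37692565, plus strand): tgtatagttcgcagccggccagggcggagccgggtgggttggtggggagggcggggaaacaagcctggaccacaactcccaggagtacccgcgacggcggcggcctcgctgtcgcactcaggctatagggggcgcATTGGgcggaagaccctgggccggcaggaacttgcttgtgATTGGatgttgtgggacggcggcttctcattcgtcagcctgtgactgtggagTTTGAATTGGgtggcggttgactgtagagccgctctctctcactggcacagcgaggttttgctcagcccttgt
KIF23 (chr15:69414099-69414398, plus strand): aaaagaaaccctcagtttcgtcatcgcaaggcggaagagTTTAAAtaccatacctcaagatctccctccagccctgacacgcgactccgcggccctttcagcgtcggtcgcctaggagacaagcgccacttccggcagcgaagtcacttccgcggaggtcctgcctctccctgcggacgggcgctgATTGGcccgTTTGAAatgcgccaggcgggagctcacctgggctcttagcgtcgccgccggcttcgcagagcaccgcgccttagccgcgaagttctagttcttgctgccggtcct
CCNB2 (chr15:59104896-59105195, plus strand): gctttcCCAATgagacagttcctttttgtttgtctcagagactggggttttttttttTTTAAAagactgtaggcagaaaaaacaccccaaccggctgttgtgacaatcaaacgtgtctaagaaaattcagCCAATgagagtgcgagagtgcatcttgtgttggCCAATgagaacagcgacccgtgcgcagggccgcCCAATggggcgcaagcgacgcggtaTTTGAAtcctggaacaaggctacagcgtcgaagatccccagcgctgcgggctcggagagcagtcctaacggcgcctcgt
PLK1 (chr16:23678639-23678938, plus strand): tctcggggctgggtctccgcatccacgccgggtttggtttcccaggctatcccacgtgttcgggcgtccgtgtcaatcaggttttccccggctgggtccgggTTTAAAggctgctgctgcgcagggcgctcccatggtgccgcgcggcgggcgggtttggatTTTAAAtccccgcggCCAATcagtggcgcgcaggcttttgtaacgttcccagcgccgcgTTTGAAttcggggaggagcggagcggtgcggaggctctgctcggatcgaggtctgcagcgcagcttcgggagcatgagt
CCNA2 (chr4:121823834-121824133, minus strand): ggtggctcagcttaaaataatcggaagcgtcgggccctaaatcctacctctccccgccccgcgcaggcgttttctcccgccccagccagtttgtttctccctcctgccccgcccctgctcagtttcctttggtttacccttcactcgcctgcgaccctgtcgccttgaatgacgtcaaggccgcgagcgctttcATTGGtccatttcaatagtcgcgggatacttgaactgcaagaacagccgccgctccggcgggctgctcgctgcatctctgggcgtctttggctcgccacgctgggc
In these windows the TTTGAA of CDCA8 began 23 bases before the start, that of CCNB2 and that of PLK1 29 bases before it, and that of KIF23 55 bases before it.

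The libraries held 7930765 to 15060744 counts, and those of E15.5-mSGcm were the shallowest (7930765 and 8937397). Levels are given as CPM, counts scaled to a common library size. A floor of 3 counts, the limit that a count of 0 allows, was 0.199 to 0.378 CPM, for counting error only. The 48 tested genes had between 40 and 22357 counts in a library. NB markers were present: MYCN and the others of 10 genes summed to 6635 to 6793 CPM in control medium, 5166 to 5474 in E8-cSGcm, 3961 to 4044 in E8-cDRGcm and 4107 to 4278 in E15.5-mSGcm, with CHGA at 0 counts in every library. Of 5 glial markers, SOX10 and FABP7 were at 0 in every library and the sum was at most 4.10 CPM, while the 3 endothelial and 4 leukocyte markers summed to at most 1.61 and 0.197 CPM. Of 6 fibroblast genes none was at 0. Their sum was 415 to 427 CPM in control medium, 434 to 447 in E8-cSGcm, 448 to 463 in E8-cDRGcm and 475 to 485 in E15.5-mSGcm.

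As a whole, the set was highest in E8-cDRGcm and lowest in E15.5-mSGcm. Its summed level was 6820 and 6735 CPM of all counts in control medium, 7739 and 7862 CPM in E8-cSGcm, 9581 and 8583 CPM in E8-cDRGcm, and 5490 and 5651 CPM in E15.5-mSGcm. No group overlapped another in this sum. The median gene of the set stood at 96.7 and 97.2 CPM in control medium, 107 and 112 CPM in E8-cSGcm, 128 and 122 CPM in E8-cDRGcm, and 78.7 and 78.1 CPM in E15.5-mSGcm. In bulk RNA, fewer cells in mitosis and less of this RNA per cell cannot be told apart. Mean levels were highest in E8-cDRGcm for 39 of the 48 genes and lowest in E15.5-mSGcm for 39. For 34 genes both E15.5-mSGcm libraries lay below both control libraries and both control libraries below both E8-cDRGcm libraries, and for 18 of these the E8-cSGcm libraries fell between control and E8-cDRGcm without overlap. Of all tested genes, 12% and 4.47% followed these orders.

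**Figure D1:**
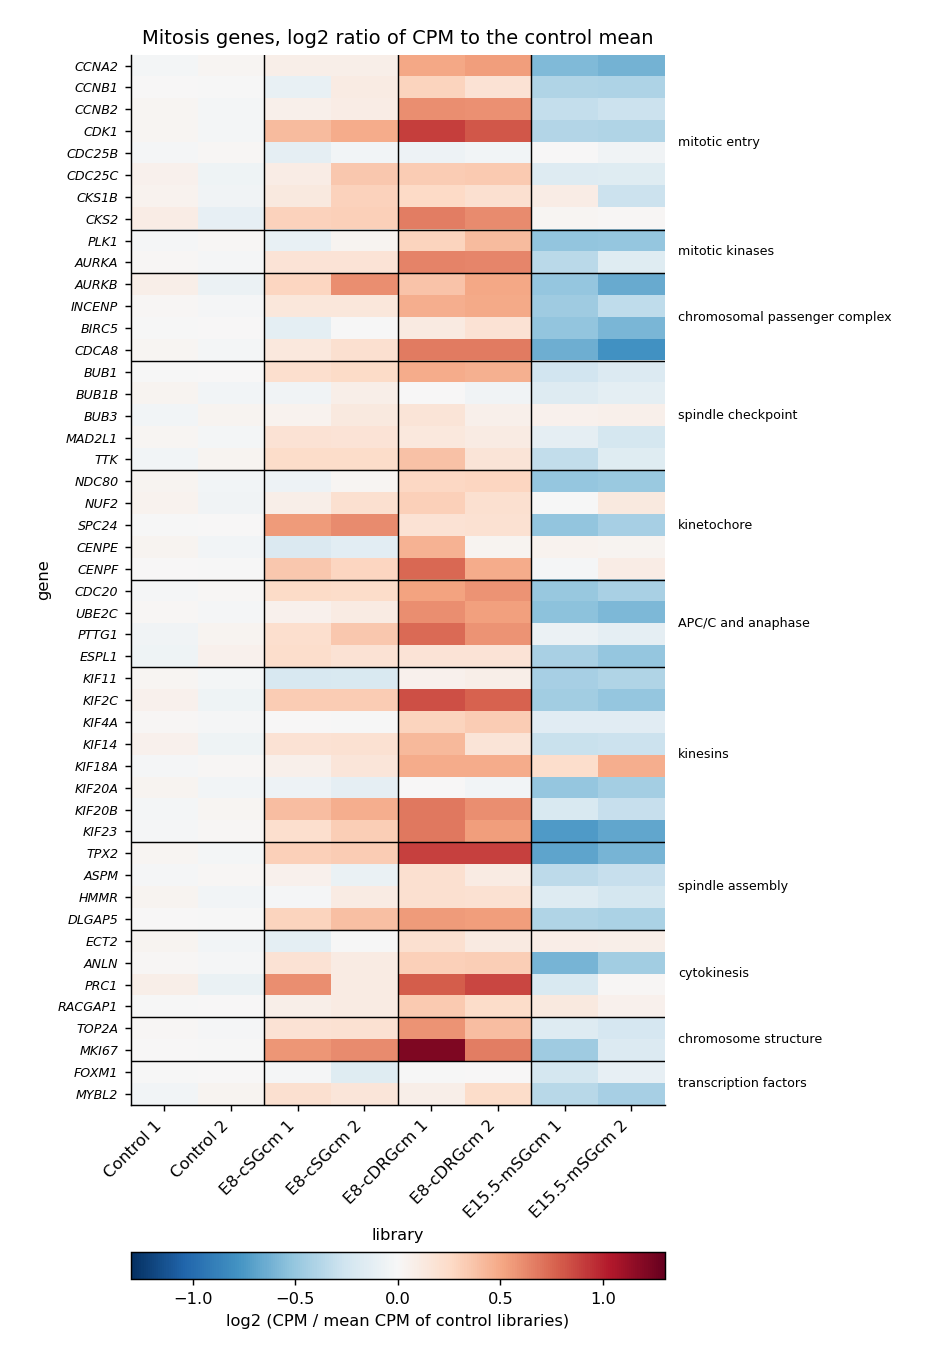
Log2 ratio of the CPM of each of the 48 tested genes (rows, by role) to the mean of the 2 control libraries, for each library (columns). Red fills most rows of the E8-cDRGcm libraries and blue most rows of the E15.5-mSGcm libraries, while CDC25B, BUB1B, BUB3 and FOXM1 stay pale throughout.

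A gene was taken to pass the test at an adjusted p under 0.05 in edgeR's quasi-likelihood test with Benjamini-Hochberg adjustment over 16680 genes, and to be called when its fold change was also at least 1.5. In E8-cDRGcm, 13 of 48 genes were called higher than in control medium and 0 lower, where 9.81% of all tested genes were called higher and 10.9% lower. At the adjusted p alone, 40 of 48 passed as higher and 0 as lower, against 24.8% and 24.7% of all genes. At an unadjusted p under 0.05, 42 were higher and 0 lower, and DESeq2 called 13 higher and 0 lower. The share of all genes at an unadjusted p was not taken, here or for the other comparisons. The median log2 fold change was 0.33 over the set and 0.01 over all tested genes. Both E8-cDRGcm libraries lay above both control libraries for 44 genes and below them for 1, against 36.8% and 36.8% of all tested genes, and 3 overlapped.

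In E15.5-mSGcm, 4 genes (CCNA2, CDCA8, KIF23 and TPX2) were called lower and 0 higher, against 7.27% and 6.65% of all genes. The 4 were 8.33% of the set, a share near that of all genes called lower. The smaller falls were more widespread: at the adjusted p alone 32 of 48 passed as lower and 1, KIF18A, as higher, against 20% and 17.8% of all genes. At an unadjusted p under 0.05 the counts were 34 and 1, and DESeq2 called 4 lower and 0 higher. The median log2 fold change was −0.28 over the set and −0.02 over all tested genes, and both libraries lay below both control libraries for 37 genes and above them for 5, against 35.8% and 32.5% of all tested genes, while 6 overlapped. In E8-cSGcm, 0 genes were called higher and 0 lower (background 4.73% and 3.86%), and at the adjusted p alone 23 passed as higher and 1, KIF11, as lower (background 16.1% and 15.2%). At an unadjusted p under 0.05 these were 28 and 1, and DESeq2 called 1 gene, MKI67, higher. The median log2 fold change was 0.18 against 0.01 over all genes, and 34 genes lay above control without overlap and 6 below, against 33.1% and 30.5% of all tested genes, while 8 overlapped.

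**Figure D2:**
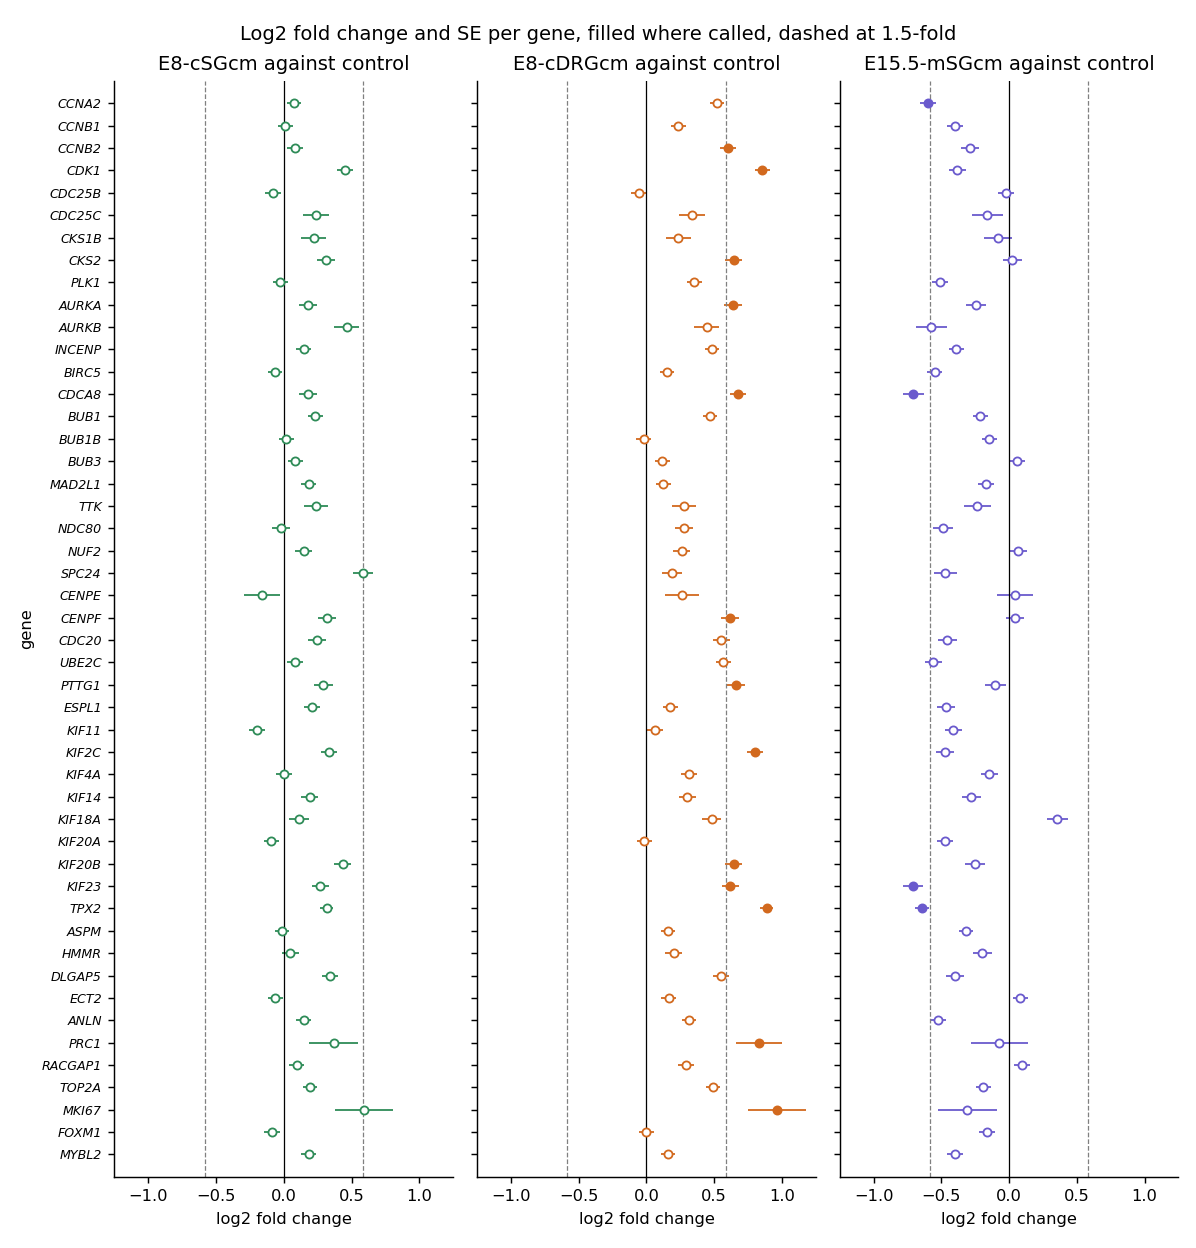
Log2 fold change against control medium (x axis) with its SE for each tested gene (y axis), 1 panel per conditioned medium. Filled points were called and dashed lines mark a 1.5-fold change: 0 points are filled for E8-cSGcm, 13 on the right for E8-cDRGcm and 4 on the left for E15.5-mSGcm.

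Among the 8 genes of mitotic entry, 3 (37.5%) were called higher in E8-cDRGcm and 1 (12.5%) lower in E15.5-mSGcm, against 9.81% and 7.27% of all genes. CDK1, the kinase that starts mitosis (chr10:62538089-62554610 on GRCh37), had 90.5 and 87.6 CPM in control medium, 119 and 125 CPM in E8-cSGcm, 166 and 156 CPM in E8-cDRGcm, and 68.5 and 68.1 CPM in E15.5-mSGcm. Its groups did not overlap, and its log2 fold change was 0.86 ± 0.056 (SE, adjusted p = 1.83e-15) in E8-cDRGcm, 0.45 ± 0.058 (adjusted p = 8.81e-08) in E8-cSGcm and −0.38 ± 0.065 (adjusted p = 1.06e-05) in E15.5-mSGcm. For CCNB2, a mitotic cyclin, the libraries held 82.7 and 80.0 CPM in control medium, 85.1 and 87.0 CPM in E8-cSGcm, 124 and 123 CPM in E8-cDRGcm, and 65.8 and 67.2 CPM in E15.5-mSGcm. It rose by 0.60 ± 0.057 (adjusted p = 3.35e-11) in E8-cDRGcm and fell by 0.29 in E15.5-mSGcm on the log2 scale. CKS2, a small subunit that binds CDK1, moved in the chick media: 77.2 and 66.7 CPM in control medium, 88.7 and 89.5 CPM in E8-cSGcm, 114 and 110.5 CPM in E8-cDRGcm, and 73.4 and 72.7 CPM in E15.5-mSGcm, the last between its control libraries. Its log2 fold change was 0.64 in E8-cDRGcm and 0.31 in E8-cSGcm, both past the adjusted p. Without control library 2 the changes of CCNB2 and CKS2 in E8-cDRGcm were 0.58 and 0.54, below the fold set for a call, and with library totals alone that of CCNB2 was 0.56.

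CCNA2, the cyclin of S phase and G2, was at 125 and 130 CPM in control medium, 134 and 134 CPM in E8-cSGcm, 181 and 185 CPM in E8-cDRGcm, and 85.3 and 83.2 CPM in E15.5-mSGcm. It was called in E15.5-mSGcm (log2 fold change −0.60 ± 0.059, adjusted p = 1.77e-10) and rose by 0.52 in E8-cDRGcm, below the fold set for a call. Without control library 2 its change in E15.5-mSGcm was −0.58 and no longer called, as with upper-quartile factors (−0.58), only the libraries compared (−0.58) or thinned libraries (−0.56). The main mitotic cyclin CCNB1 went from 192 and 191 CPM in control medium to 179 and 206 CPM in E8-cSGcm, 233 and 217 CPM in E8-cDRGcm and 146 and 145 CPM in E15.5-mSGcm. Its log2 fold changes were 0.23 in E8-cDRGcm and −0.40 in E15.5-mSGcm, both past the adjusted p, and 0.01 in E8-cSGcm. The phosphatase CDC25B had 95.0 and 97.6 CPM in control medium, 88.8 and 93.6 CPM in E8-cSGcm, 91.9 and 93.8 CPM in E8-cDRGcm, and 96.3 and 93.2 CPM in E15.5-mSGcm, and its log2 fold changes of −0.08, −0.05 and −0.02 did not pass. CDC25C rose by 0.34 in E8-cDRGcm and CKS1B by 0.24, and neither passed in the other media.

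**Figure D3:**
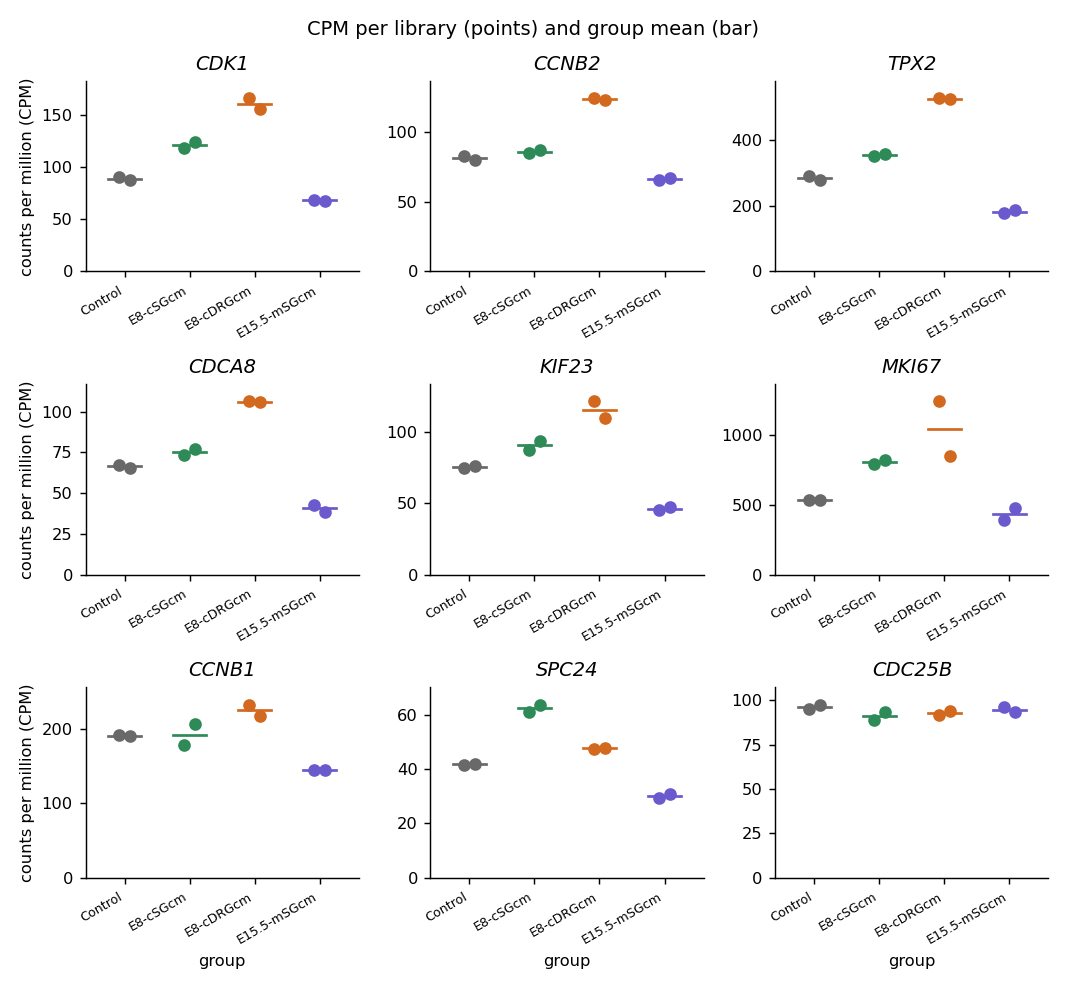
CPM of 9 genes (panels) in each library (points) by group (x axis), with the group mean as a bar and each y axis from 0. TPX2, CDCA8 and KIF23 lie above control in both E8-cDRGcm libraries and below it in both E15.5-mSGcm libraries, SPC24 is highest in E8-cSGcm, MKI67 has libraries at 1244 and 850.3 CPM in E8-cDRGcm, and CDC25B spans 88.8 to 97.6 CPM.

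Of the mitotic kinases and the chromosomal passenger complex, which places Aurora B on centromeres and the midzone, all 6 genes passed as higher in E8-cDRGcm and as lower in E15.5-mSGcm, and 4 of them as higher in E8-cSGcm. Of all genes, 24.8%, 20% and 16.1% passed in these directions. AURKA, the kinase of the spindle poles, had 59.1 and 57.9 CPM in control medium, 66.0 and 66.3 CPM in E8-cSGcm, 91.4 and 90.8 CPM in E8-cDRGcm, and 46.0 and 52.4 CPM in E15.5-mSGcm. It was called in E8-cDRGcm (0.64 ± 0.065, adjusted p = 1.55e-10), and it also passed as higher in E8-cSGcm (0.18) and lower in E15.5-mSGcm (−0.25). PLK1, which acts from mitotic entry to cytokinesis, was at 163 and 167 CPM in control medium, 154 and 169 CPM in E8-cSGcm, 202 and 219 CPM in E8-cDRGcm, and 115 and 116 CPM in E15.5-mSGcm, so that its E8-cSGcm libraries overlapped control while the other media did not. It rose by 0.35 in E8-cDRGcm and fell by 0.51 in E15.5-mSGcm. CDCA8, the borealin subunit of the passenger complex (chr1:38158153-38175391 on GRCh37), had 67.5 and 65.3 CPM in control medium, 73.2 and 77.0 CPM in E8-cSGcm, 106 and 106 CPM in E8-cDRGcm, and 42.9 and 38.6 CPM in E15.5-mSGcm. It was called both higher in E8-cDRGcm (0.68 ± 0.062, adjusted p = 1.35e-11) and lower in E15.5-mSGcm (−0.71 ± 0.075, adjusted p = 1.05e-09).

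AURKB, the kinase of that complex, stood at 33.0 and 29.7 CPM in control medium, 38.1 and 47.7 CPM in E8-cSGcm, 40.5 and 44.5 CPM in E8-cDRGcm, and 22.2 and 19.9 CPM in E15.5-mSGcm. It rose by 0.46 in E8-cSGcm and 0.44 in E8-cDRGcm, both past the adjusted p, and its difference between them was −0.02 with a 95% interval of −0.19 to 0.16. BIRC5, the survivin subunit, had 214 and 214 CPM in control medium, 196 and 213 CPM in E8-cSGcm, 232 and 243 CPM in E8-cDRGcm, and 150.1 and 142 CPM in E15.5-mSGcm. It fell by 0.55 in E15.5-mSGcm and rose by 0.15 in E8-cDRGcm, and INCENP, the scaffold, fell by 0.39 and rose by 0.48. Leaving out E15.5-mSGcm library 1 brought AURKB (−0.66) and BIRC5 (−0.60) past the fold in E15.5-mSGcm, leaving out control library 2 did so for AURKB (−0.66), and leaving out E8-cSGcm library 1 brought AURKB (0.61) past it in E8-cSGcm.

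The spindle checkpoint had 0 of 5 genes called in any medium against control, by edgeR or DESeq2, with 3, 4 and 4 of them at an unadjusted p under 0.05 in E8-cSGcm, E8-cDRGcm and E15.5-mSGcm and a median log2 fold change of 0.13 in E8-cDRGcm. BUB1, the kinase that marks the kinetochore for the checkpoint, rose by 0.47 in E8-cDRGcm and 0.23 in E8-cSGcm and fell by 0.21 in E15.5-mSGcm. BUB1B, the inhibitor of CDC20, was at 152 and 144 CPM in control medium, 144 and 156 CPM in E8-cSGcm, 149 and 143 CPM in E8-cDRGcm, and 132 and 136 CPM in E15.5-mSGcm, and only its fall of 0.14 in E15.5-mSGcm passed (adjusted p = 0.0454). BUB3 did not pass in any of the 3 media (0.09, 0.12 and 0.06). MAD2L1 passed at 0.18 in E8-cSGcm and −0.17 in E15.5-mSGcm, and TTK at 0.24 in E8-cSGcm and 0.28 in E8-cDRGcm.

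At the kinetochore, which ties chromosomes to microtubules, the members went separate ways. CENPF had 1004 and 995 CPM in control medium, 1278 and 1216 CPM in E8-cSGcm, 1672 and 1393 CPM in E8-cDRGcm, and 988 and 1068 CPM in E15.5-mSGcm. It was called in E8-cDRGcm (0.62 ± 0.065, adjusted p = 1.71e-07) and did not pass in E15.5-mSGcm (0.04), where its libraries overlapped control. SPC24, of the NDC80 complex, had 41.6 and 42.0 CPM in control medium, 61.3 and 63.9 CPM in E8-cSGcm, 47.5 and 48.0 CPM in E8-cDRGcm, and 29.3 and 31.0 CPM in E15.5-mSGcm. It was 1 of 6 genes with their highest mean in E8-cSGcm, with a log2 fold change of 0.58 ± 0.071 (adjusted p = 3.44e-08), just below the fold set for a call. Without control library 2, E8-cSGcm library 1 or E8-cDRGcm library 2 it was called (0.59, 0.62 and 0.59), and without E8-cDRGcm library 1 CENPF was not (0.48). CENPF was also not called with library totals alone (0.58) or after the correction for GC content and length, without (0.57) or with (0.57) the replicate block. NDC80, in the same complex, rose by 0.28 in E8-cDRGcm, fell by 0.49 in E15.5-mSGcm and was at −0.02 in E8-cSGcm. NUF2 passed in E8-cDRGcm alone of the 3 media (0.26), and CENPE passed in none, with 136 and 130 CPM in control medium, 117 and 120 CPM in E8-cSGcm, 182 and 136 CPM in E8-cDRGcm, and 137 and 136 CPM in E15.5-mSGcm.

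All 4 genes around the APC/C passed as higher in E8-cDRGcm, against 24.8% of all genes. PTTG1 (securin, the inhibitor of separase) was called there (0.66 ± 0.068, adjusted p = 2.25e-10), with 53.6 and 56.7 CPM in control medium, 64.2 and 70.5 CPM in E8-cSGcm, 91.9 and 82.8 CPM in E8-cDRGcm, and 52.1 and 50.8 CPM in E15.5-mSGcm. Its fall of 0.10 in E15.5-mSGcm did not pass, although its libraries there lay below control. CDC20, the activator of the APC/C, had 61.3 and 62.4 CPM in control medium, 73.6 and 73.0 CPM in E8-cSGcm, 88.8 and 92.4 CPM in E8-cDRGcm, and 43.9 and 46.3 CPM in E15.5-mSGcm. It rose by 0.24 and 0.55 in the chick media and fell by 0.45 in E15.5-mSGcm. UBE2C, the ubiquitin carrier of the APC/C, rose by 0.57 in E8-cDRGcm and fell by 0.56 in E15.5-mSGcm, and ESPL1 (separase) rose by 0.18 and fell by 0.47. Without E8-cDRGcm library 1 PTTG1 was at 0.58 in E8-cDRGcm and not called, and UBE2C was called there without library 2 (0.61) and in E15.5-mSGcm without its library 1 (−0.59).

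Of 8 kinesins tested, 3 (37.5%) were called higher in E8-cDRGcm, against 9.81% of all genes. KIF2C, which takes microtubules apart at centromeres, had 87.5 and 81.0 CPM in control medium, 106 and 106 CPM in E8-cSGcm, 150.1 and 143 CPM in E8-cDRGcm, and 61.7 and 59.6 CPM in E15.5-mSGcm, with log2 fold changes of 0.33, 0.80 and −0.47. KIF20B, a cytokinesis kinesin, had 55.9 and 58.3 CPM in control medium, 75.2 and 79.0 CPM in E8-cSGcm, 92.0 and 86.5 CPM in E8-cDRGcm, and 49.7 and 46.4 CPM in E15.5-mSGcm, with log2 fold changes of 0.43, 0.64 and −0.25. KIF23 (chr15:69706585-69740766 on GRCh37), the motor of the central spindle, was at 74.2 and 76.0 CPM in control medium, 87.3 and 93.8 CPM in E8-cSGcm, 121 and 109.7 CPM in E8-cDRGcm, and 45.1 and 47.0 CPM in E15.5-mSGcm. KIF23 was called in both directions, at 0.62 ± 0.062 (adjusted p = 1.15e-10) in E8-cDRGcm and −0.71 ± 0.074 (adjusted p = 7.36e-10) in E15.5-mSGcm. Its change in E8-cDRGcm was not called without E8-cDRGcm library 1 (0.54) or with library totals alone (0.58).

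KIF18A, KIF11 and KIF20A departed from that order. KIF18A, which limits the length of kinetochore microtubules, was higher in E15.5-mSGcm than in control medium: 46.3 and 47.2 CPM in control medium, 48.9 and 52.0 CPM in E8-cSGcm, 65.1 and 65.3 CPM in E8-cDRGcm, and 54.7 and 64.7 CPM in E15.5-mSGcm. It rose by 0.48 in E8-cDRGcm and 0.36 in E15.5-mSGcm (adjusted p = 0.000416), below the fold set for a call. KIF11, the bipolar motor that pushes the poles apart, fell in both sympathetic media, with 98.3 and 94.8 CPM in control medium, 83.6 and 84.2 CPM in E8-cSGcm, 100.1 and 102 CPM in E8-cDRGcm, and 71.5 and 73.3 CPM in E15.5-mSGcm (log2 fold changes −0.20 and −0.41). KIF20A was at 135 and 129 CPM in control medium, 126 and 122 CPM in E8-cSGcm, 133 and 129 CPM in E8-cDRGcm, and 93.0 and 97.1 CPM in E15.5-mSGcm, and passed only as lower in E15.5-mSGcm (−0.47). KIF4A rose by 0.31 in E8-cDRGcm, and KIF14 rose by 0.30 there and fell by 0.28 in E15.5-mSGcm.

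TPX2, which activates Aurora A on the spindle (chr20:30327074-30389608 on GRCh37), held 289 and 278 CPM in control medium, 350.1 and 356 CPM in E8-cSGcm, 525 and 524 CPM in E8-cDRGcm, and 176 and 186 CPM in E15.5-mSGcm. Its groups were all apart, and it was called at 0.89 ± 0.048 (adjusted p = 5.64e-18) in E8-cDRGcm and −0.64 ± 0.051 (adjusted p = 7.89e-13) in E15.5-mSGcm. Of the other spindle genes, DLGAP5 rose by 0.55 in E8-cDRGcm and by 0.34 in E8-cSGcm, where TPX2 rose by 0.32, and fell by 0.40 in E15.5-mSGcm. In E8-cDRGcm and E15.5-mSGcm ASPM rose by 0.16 and fell by 0.32, and HMMR rose by 0.20 and fell by 0.20. In cytokinesis, PRC1, which bundles midzone microtubules, was called in E8-cDRGcm (0.83 ± 0.17, adjusted p = 8.37e-05) from 6.19 and 5.52 CPM in control medium, 8.90 and 6.30 CPM in E8-cSGcm, 10.1 and 10.7 CPM in E8-cDRGcm, and 5.12 and 5.94 CPM in E15.5-mSGcm. PRC1 shares 57.6% of its exonic bases with another gene on its strand, whether reads were set aside as ambiguous was not tested, and its level is uncertain. Without E8-cSGcm library 2 it was also called in E8-cSGcm (0.61, adjusted p = 0.0227). ANLN, the contractile ring protein, rose by 0.31 in E8-cDRGcm and fell by 0.52 in E15.5-mSGcm, where it was called without library 2 (−0.61). ECT2 and RACGAP1 activate or regulate RhoA signalling at the midzone, RACGAP1 as the partner of KIF23. ECT2 had 145 and 138 CPM in control medium, 130.2 and 141 CPM in E8-cSGcm, 164 and 154 CPM in E8-cDRGcm, and 151 and 149.5 CPM in E15.5-mSGcm. RACGAP1 had 103 and 103 CPM in control medium, 109 and 111 CPM in E8-cSGcm, 130.2 and 122 CPM in E8-cDRGcm, and 113 and 107 CPM in E15.5-mSGcm. They rose by 0.16 and 0.29 in E8-cDRGcm, and their values of 0.08 and 0.09 in E15.5-mSGcm, where KIF23 fell, did not pass.

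MKI67, which coats mitotic chromosomes and codes for the proliferation marker Ki-67, had the largest log2 fold change of the set in both chick media, and also the widest replicate gap. It was at 538 and 535 CPM in control medium, 798 and 821 CPM in E8-cSGcm, 1244 and 850.3 CPM in E8-cDRGcm, and 389.7 and 475 CPM in E15.5-mSGcm. Its log2 fold change was 0.97 ± 0.21 (adjusted p = 0.0203) in E8-cDRGcm, 0.59 ± 0.21 (adjusted p = 0.114) in E8-cSGcm and −0.31 ± 0.22 (adjusted p = 0.353) in E15.5-mSGcm. The call in E8-cDRGcm was lost when only the libraries compared were fitted (adjusted p = 0.0975), and without control library 1 (0.0983) or 2 (0.102) or E8-cSGcm library 1 (0.0515) or 2 (0.0513). In E8-cSGcm it was called without E8-cDRGcm library 1 (adjusted p = 1.36e-05) or 2 (2.77e-05). TOP2A, which untangles sister chromatids, had 291 and 285 CPM in control medium, 327 and 330 CPM in E8-cSGcm, 430.2 and 380.3 CPM in E8-cDRGcm, and 257 and 248 CPM in E15.5-mSGcm, a rise of 0.49 in E8-cDRGcm and a fall of 0.19 in E15.5-mSGcm.

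The 2 transcription factors of the set moved little in E8-cDRGcm. FOXM1 had 129 and 130.5 CPM in control medium, 128 and 116 CPM in E8-cSGcm, 129 and 130.3 CPM in E8-cDRGcm, and 111 and 121 CPM in E15.5-mSGcm, and of the 3 changes only the fall of 0.16 in E15.5-mSGcm passed. MYBL2, which codes for B-MYB, was at 198 and 208 CPM in control medium, 234 and 227 CPM in E8-cSGcm, 214 and 239 CPM in E8-cDRGcm, and 158 and 150.5 CPM in E15.5-mSGcm. It rose by 0.18 and 0.16 in the chick media and fell by 0.40 in E15.5-mSGcm.

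Between the media, 27 of 48 genes were called lower in E15.5-mSGcm than in E8-cDRGcm and 0 higher (background 13.1% lower and 13.1% higher), with a median log2 fold change of −0.65. At an unadjusted p under 0.05 the counts were 43 lower and 0 higher, and DESeq2 called 27 lower and 0 higher. TPX2 (−1.53), CDCA8 (−1.38), KIF23 (−1.33), KIF2C (−1.27), MKI67 (−1.27), CDK1 (−1.24), UBE2C (−1.13) and CCNA2 (−1.12) had the largest differences. Only CDC25B, BUB3 and CENPE had overlapping libraries in this comparison. Both E15.5-mSGcm libraries lay below both E8-cDRGcm libraries for 45 genes and above them for 0, against 38% and 36.9% of all tested genes. The call of MKI67 was lost without E15.5-mSGcm library 1 (−1.15, adjusted p = 0.0539) and with only the libraries compared (−1.27, adjusted p = 0.0687). Between the sympathetic media, 15 genes were called lower in E15.5-mSGcm than in E8-cSGcm and 0 higher (background 12.1% and 10.2%), led by SPC24 (−1.05) and AURKB (−1.04). At an unadjusted p under 0.05 the counts were 40 lower and 2 higher, and DESeq2 called 15 lower and 0 higher. MKI67 was among them and lost its call without control library 1 (adjusted p = 0.0604) or 2 (0.0604), E8-cSGcm library 1 (0.0914) or 2 (0.109), or E15.5-mSGcm library 1 (0.128) or 2 (0.0745), with log2 differences of −1.06 to −0.78. Between the chick media, 0 genes were called higher and 0 lower in E8-cDRGcm (background 2.62% and 4.87%). At the adjusted p alone 31 passed (background 30.2% in either direction), 30 as higher (background 14.7%) and SPC24 as lower. At an unadjusted p under 0.05 these were 32 and 1, and DESeq2 called 0. Without E8-cDRGcm library 2 CENPE (0.62) and MKI67 (0.62) were called higher, and without E8-cSGcm library 1 PRC1 (0.72).

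Comparisons that share control libraries cannot be set against each other, but 3 pairs share none. The log2 fold changes of E8-cDRGcm against control and of E15.5-mSGcm against E8-cSGcm had opposite signs in 41 of 48 genes, with Pearson's r of −0.52 across these genes and −0.30 across all tested genes. For E8-cSGcm against control and E15.5-mSGcm against E8-cDRGcm the signs were opposite in 39 genes, with r of −0.54 and −0.52. For E15.5-mSGcm against control and E8-cDRGcm against E8-cSGcm they were opposite in 34, with r of −0.13 and 0.18. The sign counts follow largely from the shift of the whole set and cannot show a link gene by gene. Of the 48 genes, 44 were above 0 in E8-cDRGcm and 38 in E8-cSGcm against control, and 40 were below 0 in E15.5-mSGcm. In E15.5-mSGcm 43 were below 0 against E8-cSGcm and 47 against E8-cDRGcm, and 42 were above 0 in E8-cDRGcm against E8-cSGcm. The share of opposite signs over all genes was not taken. Genes are not independent replicates, and these values describe the libraries only.

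Genes near the set followed it unequally. Of 61 tested further mitosis genes, 13 (21.3%) were called higher and 3 (4.92%) lower in E8-cDRGcm, against 9.81% and 10.9% of all genes. In E15.5-mSGcm 12 (19.7%) were called lower and 0 higher, against 7.27% and 6.65% (39 lower and 2 higher at an unadjusted p), and in E8-cSGcm 0 were called (27 higher and 5 lower at an unadjusted p). HJURP, the chaperone of the centromeric histone, had 60.9 and 58.3 CPM in control medium, 85.6 and 80.0 CPM in E8-cSGcm, 124 and 125 CPM in E8-cDRGcm, and 32.7 and 33.4 CPM in E15.5-mSGcm. Its log2 fold changes of 1.07 in E8-cDRGcm and −0.85 in E15.5-mSGcm were called, and each exceeded that of any of the 48 genes. NEK2, a centrosome kinase, rose by 1.05 in E8-cDRGcm, and PIMREG fell by 1.01 in E15.5-mSGcm. Of 16 genes in the APC/C list, UBE2S, its chain-extending ubiquitin carrier, was the one called, at 0.59 in E8-cDRGcm and −0.60 in E15.5-mSGcm. In the condensin and cohesin list of 19, STAG1, a cohesin subunit, was the one called, and it went the other way: 53.4 and 57.2 CPM in control medium, 34.9 and 34.3 CPM in E8-cSGcm, 31.5 and 30.6 CPM in E8-cDRGcm, and 91.9 and 95.6 CPM in E15.5-mSGcm. Of 11 DREAM and MuvB subunits LIN52 alone was called (0.83 in E8-cDRGcm), 9.09% of the list, against 9.81% of all genes. UBE2S was 6.25% of its list, against 9.81% of all genes called higher in E8-cDRGcm and 7.27% lower in E15.5-mSGcm. STAG1 was 5.26% of its list, against 10.9% of all genes called lower in E8-cDRGcm, 3.86% lower in E8-cSGcm and 6.65% higher in E15.5-mSGcm. These 3 lists were thus called at shares near or below those of all genes.

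In E8-cDRGcm the median log2 fold change of 28 S-phase genes was −0.29, where that of the mitosis genes was 0.33. At the adjusted p alone 18 (64.3%) passed as lower and 2 (7.14%) as higher, against 24.7% and 24.8% of all tested genes. The 2 called lower (7.14%, MCM3 at −0.67 and POLA1 at −0.69, a helicase subunit and a polymerase subunit) were a smaller share than the 10.9% of all genes, and 0 were called higher. In E15.5-mSGcm 6 S-phase genes were called lower (21.4%, against 7.27% of all genes) and 0 higher, 20 and 3 passed at the adjusted p alone (71.4% and 10.7%, against 20% and 17.8%), and the median was −0.36. RRM2, a subunit of ribonucleotide reductase, had 57.2 and 52.3 CPM in control medium, 57.6 and 60.6 CPM in E8-cSGcm, 58.0 and 59.5 CPM in E8-cDRGcm, and 28.1 and 31.0 CPM in E15.5-mSGcm. In E8-cSGcm, 0 S-phase genes were called, with a median of 0.11 (9 higher and 3 lower at an unadjusted p).

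Of 7 tested genes that restrain CDK1, 2 were called higher in E8-cDRGcm (28.6%, against 9.81% of all genes), 1 higher and 1 lower in E15.5-mSGcm (14.3% each, against 6.65% and 7.27%) and 0 in E8-cSGcm, where 6 were higher and 0 lower at an unadjusted p under 0.05. GADD45A, an inhibitor of CDK1 and cyclin B, had 51.5 and 50.2 CPM in control medium, 54.8 and 56.2 CPM in E8-cSGcm, 103 and 102 CPM in E8-cDRGcm, and 54.6 and 55.7 CPM in E15.5-mSGcm, and was called in E8-cDRGcm (1.01 ± 0.063, adjusted p = 4.27e-16). WEE1, the kinase that blocks CDK1, fell by 0.60 in E15.5-mSGcm and rose by 0.53 in E8-cDRGcm. CDKN1A, which codes for the CDK inhibitor p21, was low throughout, at 29 and 20 counts in control medium, 33 and 43 in E8-cSGcm, 58 and 56 in E8-cDRGcm, and 44 and 52 in E15.5-mSGcm (2.22 and 1.32, 2.65 and 3.01, 4.34 and 4.10, and 5.64 and 5.94 CPM). It was called at 1.28 ± 0.26 in E8-cDRGcm (adjusted p = 0.000103) and 1.73 ± 0.27 in E15.5-mSGcm (adjusted p = 2.46e-06). CDKN1A was on this list and also among the p53 targets, so its calls are counted in each. Of 22 p53 targets, 7 were called higher and 2 lower in E15.5-mSGcm, 2 higher and 2 lower in E8-cDRGcm, and 1 higher and 2 lower in E8-cSGcm, where all tested genes gave 6.65% and 7.27%, 9.81% and 10.9%, and 4.73% and 3.86%. The 7 higher in E15.5-mSGcm were 31.8% of the list, while the 2 and 2 in E8-cDRGcm (9.09% each) and the 1 higher in E8-cSGcm (4.55%) lay near the shares of all genes. TNFRSF10B, a death receptor, was higher in all 3 media (0.70, 1.51 and 0.78), and PLK2, a kinase of the polo family, lower in all 3 (−0.60, −1.02 and −1.04).

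The other 3 of the 51 genes were not tested. KIF15, a kinesin of the spindle, had 0 counts in every library, SPC25, of the NDC80 complex, had 0 to 6, and NUSAP1, a spindle protein, had 0 to 5. Of the exonic bases of NUSAP1, 86.8% also belong to other genes annotated on its strand, and whether its reads were set aside as ambiguous was not tested. Exons of 14 further tested members share between 0.15% and 15.9% of their bases with another gene, mostly on the other strand, and the strand option of the counting is not given in the sources used here.

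Per kb of exon, mean levels in control medium ran from 117 CPM per kb for CKS2, 80.1 for CENPF and 78.7 for CCNB1 down to 6.68 for CDC25C and 1.06 for PRC1. The exons of the 48 tested members had a median GC content of 44.8%, against 47.8% over tested genes with an annotated sequence. With each library corrected for GC content and gene length, the median log2 fold change of the set was 0.37 in E8-cDRGcm and −0.34 in E15.5-mSGcm, and with all libraries thinned to 7930765 counts it was 0.35 and −0.26. The part of GC content, depth and the fibroblast genes in these differences was otherwise not tested.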

How the data were processed

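RNA of 8 aggregate libraries was measured. Strand-marked libraries were prepared from 50 ng of RNA each and read from a single end over 75 bp, according to the methods. The authors used bcl2fastq 2.17.1.14, cutadapt 1.9.1, TopHat2 2.1.0 and HTSeq 0.11.3, as the submitters' processing notes and the methods name them, and deposited raw counts per Ensembl gene without normalization. The methods name hg19 and the processing notes hg38. Gene positions are therefore those of GENCODE 44 on GRCh37, looked up by identifier, and promoter windows are from RefSeq on GRCh38.p14. A gene symbol was found by identifier for 58611 of the 60676 rows.

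Libraries were grouped by their titles, and 0 sample columns were left unused. The deposited counts were scaled by TMM, low genes were removed with filterByExpr, and all 8 libraries were fitted in 1 robust quasi-likelihood model with group as the only term (edgeR 4.0.16, R 4.3.3). CPM use the TMM scale, except the summed level of the set, which is relative to all counts. The SE of a log2 fold change came from its F statistic, and a 95% interval is 1.96 SE to either side. The tests were tried on simulated data. Totals of 7930765 to 15060744 counts set the precision.

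Alternatives were DESeq2 1.42.0, other size factors or none, filters at 1 count in total or 10 in every library, a fit of only the groups compared, no fold criterion, a replicate block, the removal of single libraries, thinning to the smallest total and, added after seeing the data, a correction for GC content and length. No gene set was tested. Some marker genes are not reported here and were left out of the marker sums.

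The members, the gene lists and the tests were chosen with earlier results of these data known. Values in every library were to be given for members called against control in at least 1 medium, for the 3 highest and 3 lowest log2 fold changes per medium, and for CCNA2, CCNB1, CDK1, PLK1, AURKA, AURKB, CDC20, TOP2A, MKI67, BIRC5, FOXM1 and MYBL2. From each other list at most 4 called genes per medium, and CDKN1A, were named. Figures were drawn with matplotlib 3.10.9.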

Additional observations from a re-analysis of the deposited data

Results flagged for a closer look

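For 3 genes the effects of E8-cDRGcm and of E15.5-mSGcm against control were called in opposite directions. The share of all tested genes called in opposite directions was not taken. The difference between the 2 media (log2, E15.5-mSGcm against E8-cDRGcm) was −1.53 ± 0.051 (SE) for TPX2, −1.38 ± 0.072 for CDCA8 and −1.33 ± 0.072 for KIF23. These genes were picked by those opposite calls, so the differences are given as a description, with no p. In all 3, both E15.5-mSGcm libraries lay below and both E8-cDRGcm libraries above both control libraries. No group held enough libraries for a check of single outlying libraries.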

How the results depend on the processing

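No called change and no median of the set reversed its direction under the 20 other settings. Of 5760 single-gene values under them, 111 had the other sign, from 38 comparisons of single genes, and none of these passed the adjusted p in either fit. At the adjusted p alone, without the fold, 24 genes passed in E8-cSGcm, 40 in E8-cDRGcm and 33 in E15.5-mSGcm against control. Between media, 31 passed in E8-cDRGcm against E8-cSGcm, 40 in E15.5-mSGcm against E8-cSGcm and 42 in E15.5-mSGcm against E8-cDRGcm. The 40 were 38 lower and 2 higher, where 4325 of all 16680 tested genes passed as lower and 3979 as higher. The 42 were all lower, where 4470 of all tested genes passed as lower and 4297 as higher. In E8-cSGcm, MKI67 was the 1 gene called with DESeq2 (0.59) or with only the libraries compared (0.59). SPC24 was the 1 gene called with upper-quartile factors (0.59), library totals alone (0.59) or a filter at 1 count in total (0.59). No gene was called under all of these. In E15.5-mSGcm, 7 genes were called lower with library totals alone or with the filter at 1 count. Median log2 fold changes were 0.29 in E8-cDRGcm and −0.33 in E15.5-mSGcm with library totals alone, −0.34 in E15.5-mSGcm with the filter at 1 count, and 0.37 and −0.34 after the correction for GC content and length, added after seeing the data, with or without the replicate block. That correction called 1 gene, TPX2 (0.63), in E8-cDRGcm against E8-cSGcm, also with the block, and lost CENPF in E8-cDRGcm against control (0.57). Library totals alone lost CENPF (0.58), KIF23 (0.58) and CCNB2 (0.56) there. The cause was not tested.

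Leaving out 1 library at a time gave 0 to 2 genes called in E8-cSGcm, 10 to 14 in E8-cDRGcm, 4 to 7 in E15.5-mSGcm, 0 to 2 in E8-cDRGcm against E8-cSGcm, 14 to 16 in E15.5-mSGcm against E8-cSGcm and 26 to 30 in E15.5-mSGcm against E8-cDRGcm, with medians against control of 0.14 to 0.18, 0.31 to 0.38 and −0.34 to −0.28. Where a group was left with 1 library, it was assumed to vary like the others. No source used here says that same-numbered libraries share more than a number. Their deviations correlated at −0.044 to 0.042, which cannot show whether they shared a culture or lot. With the replicate block, 13 genes were called in E8-cDRGcm, 4 in E15.5-mSGcm and 0 in E8-cSGcm against control, 27 in E15.5-mSGcm against E8-cDRGcm and 14 in E15.5-mSGcm against E8-cSGcm, where MKI67 was not called (adjusted p = 0.0563). It changed no other call of the 48 genes. With 2 libraries a group, single libraries moved calls near the fold of 1.5, and the least deep libraries were those of E15.5-mSGcm.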
